A study of Mus musculus with 2 samples.

Results

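The 35 genes described here encode innate sensors, the adaptors and kinases that relay their signals, and the parts of the inflammasome. They were chosen as a list of gene symbols, and all 35 were found among the 32285 genes of the deposited count matrices. The list holds 12 Toll-like receptors (TLRs) and 23 partners, adaptors, kinases, cytosolic sensors and effectors. The cells were CD45-positive leukocytes sorted by flow cytometry from subcutaneous B16F10 tumours, a transplantable mouse melanoma, in mice with the genotype label WT, and were profiled with 10x Genomics single-cell RNA sequencing. The control library came from animals that had received untreated bone-marrow-derived macrophages (BMDMs), and the IL4 library from animals that had received BMDMs treated with interleukin-4. The treatment given among the sample characteristics set the groups, since the protocol field names IL-4-treated BMDMs for both libraries. The sources used here do not state the age, sex or number of the animals, and macrophages that were transferred cannot be told apart from those of the host. With 1 library per group no test between the groups was possible, and every difference below compares these 2 libraries.

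TLRs bind microbial products at the cell surface or, after delivery by the chaperone Unc93b1, nucleic acids in endosomes, and they signal through the adaptors Myd88 or Ticam1 (TRIF) to IRAK kinases and Tbk1. Nod1 and Nod2 sense peptidoglycan fragments in the cytosol and signal through Ripk2. An inflammasome forms when a cytosolic sensor such as Nlrp3, Nlrc4 or Aim2 recruits the adaptor Pycard (ASC) and Casp1, which matures interleukin-1 family cytokines and cleaves the pore-forming protein Gsdmd. Neutrophils, monocytes, macrophages and dendritic cells are known for carrying these genes in different combinations, with Tlr3 and Tlr11 typical of cDC1 and Tlr7 of plasmacytoid cells.

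The control library held 8994 barcodes and 95499107 unique molecular identifiers (UMIs, counted transcript molecules), and the IL4 library 13873 barcodes and 133151428 UMIs. Quality limits kept 8937 and 13762 barcodes, and 23 barcode sequences occurred in both libraries. Barcodes with Y-linked but no Xist UMIs made up 36.8% of the control and 10.9% of the IL4 barcodes that carried only 1 of these 2 kinds, so cells of both sexes were present in unequal shares. Leukocyte types were gated per barcode by the UMIs per 10000 in lists of marker genes, none of which is among the 35 genes. The gates held 1877 control and 2815 IL4 macrophage-like barcodes, 959 and 1484 monocyte-like, 591 and 763 conventional type 2 dendritic (cDC2)-like, 299 and 497 conventional type 1 dendritic (cDC1)-like, and 346 and 627 mature migratory dendritic (mature DC)-like barcodes. There were 321 and 134 neutrophil-like, 177 and 434 NK-like, 260 and 446 T cell-like, 40 and 91 plasmacytoid dendritic (pDC)-like, and 58 and 26 B cell-like barcodes. Outside all gates lay 41.6% of control and 42.4% of IL4 barcodes, and another 228 and 474 carried lymphoid or pDC markers together with macrophage markers. The gates cut a continuous score: within 25% above the macrophage minimum lay 311 and 385 of the macrophage-like barcodes. Within 25% below it lay 759 and 1227 barcodes that were not in this gate, though not necessarily outside all gates. The macrophage-like gate had a median classical monocyte score of 14.6 (control) and 14.4 (IL4), and the monocyte-like gate a median macrophage score of 11.5 in both. The neutrophil-like gate had median macrophage scores of 4.81 and 4.14, and the cDC1-like gate median monocyte scores of 12.1 and 15.8. The pDC-like gate had median monocyte scores of 62.9 and 49.0, near the 59.0 and 64.0 of the monocyte-like gate, beside median pDC scores of 62.5 and 76.8 and macrophage scores of 1.32 and 1.86. The part of these other markers in the pDC-like levels was not tested.

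For each gate and library the UMIs of a gene were summed and expressed as counts per 1000000 UMIs of the gate (CPM). Each level is 1 value per library with an exact Poisson 95% interval, and all intervals here cover counting error only. CPM values of different genes are not set against each other, because capture differs between transcripts. Among the 8 types with at least 100 barcodes in each library, 28 of the 35 genes had their highest level in the same type in both libraries, against 62.4% of the 16116 genes with enough UMIs. The neutrophil-like gate was highest for 10 of them (7.61% of all genes): Tlr4, Tlr6, Tlr13, Cd14, Tirap, Irak2, Irak3, Nlrp3, Casp4 and Tbk1. Monocyte-like barcodes were highest for 6 (3.18% of all genes), namely Tlr2, Nod2, Nlrc4, Pycard, Casp1 and Gsdmd. Macrophage-like barcodes were highest for Tlr1, Tlr7, Tlr8, Tlr9 and Ly96 (5 genes, 6.50% of all genes), although the Tlr9 level there was only 1.26 and 1.16 times that of the next type on few UMIs, and cDC1-like barcodes for Tlr3, Tlr11, Tlr12, Myd88 and Unc93b1 (5 genes, 6.75%). Ripk2 was highest in mature DC-like barcodes (8.42% of all genes) and Aim2 in NK-like barcodes (11.7%). No gene of the list was highest in cDC2-like or T cell-like barcodes in both libraries, where 2.36% and 15.9% of all genes had their highest level. The other 7 genes, Tlr5, Ticam1, Ticam2, Irak1, Irak4, Nod1 and Mavs, had different highest types in the 2 libraries.

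**Figure D1:**
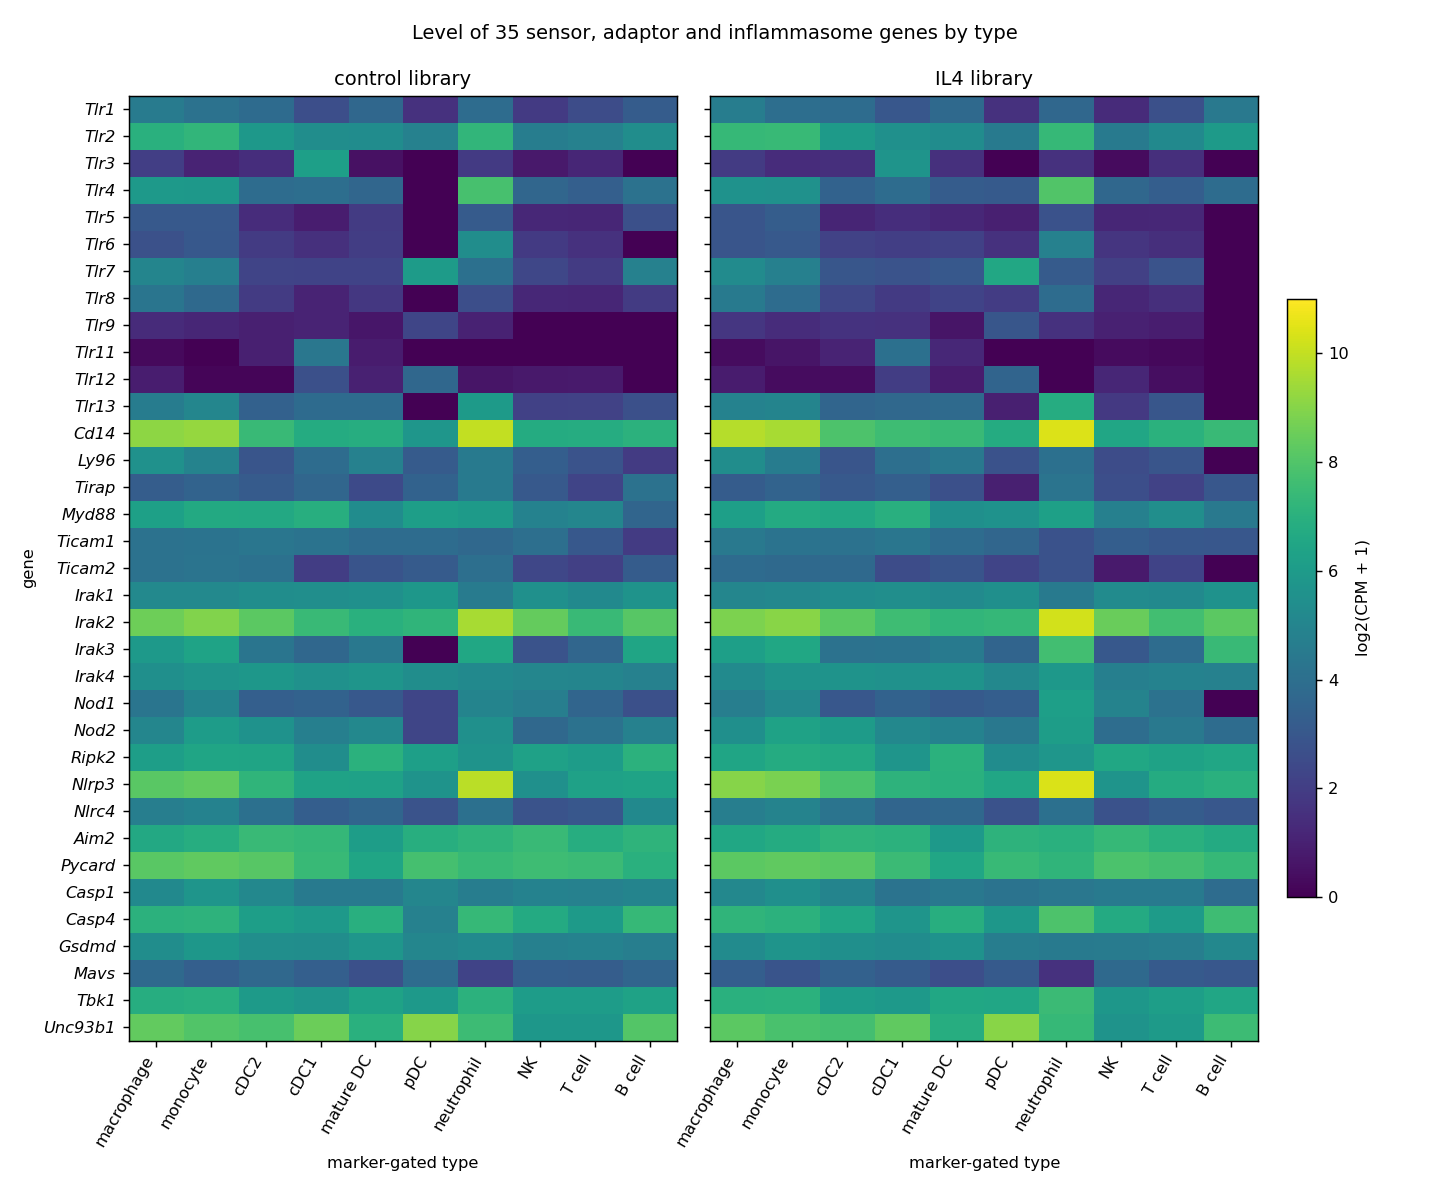
Colour gives log2(CPM + 1) of each of the 35 genes (rows) in 10 marker-gated types (columns), for the control library on the left and the IL4 library on the right, with 1 value per cell of the map. Cd14, Irak2 and Nlrp3 are brightest in the neutrophil column of both panels, and Tlr3 and Tlr11 stand out in the cDC1 column.

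Among the receptors at the cell surface, Tlr4, the lipopolysaccharide receptor, had its highest level in neutrophil-like barcodes. Its level there was 219 control CPM (198 to 241) and 254 IL4 CPM (212 to 302). Macrophage-like barcodes had 58.6 and 47.5 CPM and monocyte-like barcodes 57.2 and 45.7 CPM, so neutrophil-like barcodes stood apart in both libraries, and macrophage-like and monocyte-like intervals overlapped. The cDC2-like gate had 13.9 and 9.89 CPM, cDC1-like 14.9 and 13.8 CPM, and mature DC-like 11.4 and 8.20 CPM. Cd14, the co-receptor that hands lipopolysaccharide to the Tlr4 complex, was likewise highest in neutrophil-like barcodes: 1029.6 control and 1368 IL4 CPM in neutrophil-like barcodes, 617 and 749 CPM in monocyte-like, and 561 and 885 CPM in macrophage-like barcodes. In the IL4 library macrophage-like barcodes exceeded monocyte-like ones in Cd14, and in the control library the order was the opposite, in both cases with separate intervals. The dendritic gates carried less Cd14, with 173 and 239 CPM in cDC2-like, 107 and 192 CPM in cDC1-like and 115 and 175 CPM in mature DC-like barcodes. Ly96 (MD-2), the lipopolysaccharide-binding partner of Tlr4, was highest in macrophage-like barcodes, at 45.7 CPM (42.6 to 49.0) and 40.4 CPM (37.9 to 43.1), and its next level was 29.2 CPM in control monocyte-like barcodes. Neutrophil-like barcodes had 21.5 and 15.6 CPM of Ly96, so the type with the most Tlr4 and Cd14 was not the one with the most Ly96.

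Tlr2, which recognises bacterial lipopeptides with Tlr1 or Tlr6, had similar levels in 3 types. It reached 151 CPM (143 to 159) and 169 CPM (162 to 176) in monocyte-like, 149 CPM (133 to 168) and 166 CPM (133 to 205) in neutrophil-like, and 127 CPM (122 to 132) and 167 CPM (161 to 172) in macrophage-like barcodes. The monocyte-like and neutrophil-like levels did not differ beyond their intervals in either library. Its 2 partners were distributed differently. Tlr1 had 22.7 and 24.3 CPM in macrophage-like, 16.5 and 14.7 CPM in monocyte-like and 13.6 and 11.7 CPM in neutrophil-like barcodes, whereas Tlr6 had 41.4 CPM (32.8 to 51.6) and 27.4 CPM (14.95 to 45.9) in neutrophil-like barcodes and at most 7.36 CPM in any other gate of at least 100 barcodes. Tlr1 and Tlr6 are neighbouring paralogs on chromosome 5, 18.467 kb apart in the GENCODE annotation of GRCm38, and reads shared between them could be split or lost, which makes their levels uncertain. Tlr5, the flagellin receptor, was low in every type, with 8.55 CPM or less and 3 to 147 UMIs per gate and library among the neutrophil-like, monocyte-like and macrophage-like barcodes.

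**Figure D2:**
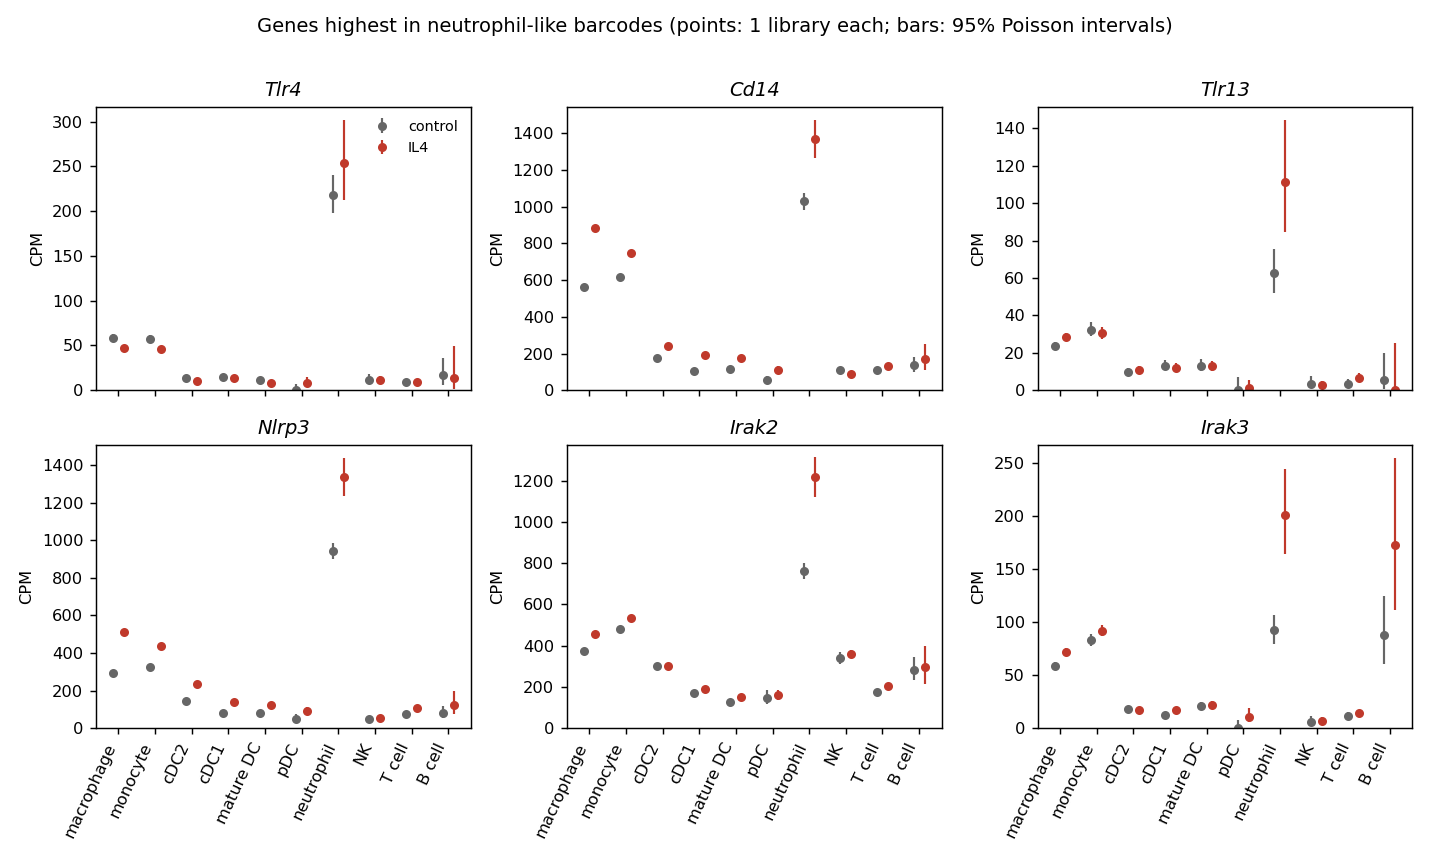
CPM (vertical axis) of Tlr4, Cd14, Tlr13, Nlrp3, Irak2 and Irak3 in 10 marker-gated types, with 1 grey point for the control and 1 red point for the IL4 library and bars for Poisson 95% intervals. In every panel the neutrophil points are the highest of the 8 types with at least 100 barcodes, and the IL4 point lies above the control point there.

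The receptors of endosomes divided the dendritic types. Tlr3, the receptor for double-stranded RNA, was counted at 73.7 CPM (67.5 to 80.4) in cDC1-like barcodes of the control and at 50.1 CPM (45.8 to 54.7) in those of the IL4 library. The next level was 3.09 CPM in control and 2.74 CPM in IL4 macrophage-like barcodes. Of cDC1-like barcodes 61.2% of the control and 46.7% of the IL4 library had at least 1 Tlr3 UMI, against 0.565% and 0.230% of NK-like barcodes, whose median depth was 6862 and 6779 UMIs where that of cDC1-like barcodes was 22243 and 19157. After each barcode had been thinned to 1000 UMIs, the cDC1-like shares were 7.36% (4.67 to 10.9, Clopper-Pearson) and 5.84% (3.94 to 8.27), and in NK-like barcodes 0.565% and 0%, the latter with an upper bound of 0.846%. Tlr11, a receptor for profilin of parasites, gave 136 and 156 UMIs in cDC1-like barcodes, which is 19.5 CPM (16.3 to 23.0) and 15.6 CPM (13.3 to 18.3). In no other gate did Tlr11 exceed 1.32 CPM. Tlr12, which pairs with Tlr11, had 5.44 CPM (3.85 to 7.47) and 3.004 CPM (2.03 to 4.29) in cDC1-like barcodes and 11.9 CPM and 10.6 CPM in pDC-like barcodes. The pDC-like values rested on 6 and 11 UMIs, and their intervals reached from 4.36 to 25.9 and from 5.28 to 18.9 CPM. In pDC-like barcodes Tlr3 and Tlr11 had 0 UMIs in both libraries, which allows up to 5.95 control CPM and 2.88 IL4 CPM, counting a 0 as 3 UMIs.

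These 3 genes lie on different chromosomes. In the GENCODE annotation of GRCm38, the mm10 assembly, Tlr3 spans chr8:45395665-45411080 on the minus strand, Tlr11 chr14:50357914-50363663 on the plus strand and Tlr12 chr4:128615443-128618619 on the minus strand. Their promoters are printed because, among the 8 types with at least 100 barcodes, the 3 genes were highest in the cDC1-like gate; the small pDC-like gate had more Tlr12. Each runs 5′ to 3′ on the strand of the gene from 250 bases before to 50 bases after the transcript start, from RefSeq on GRCm38.p6, with matches to the motifs searched in capitals. The Tlr3 stretch is chr8:45410331-45410630, 700 bases inside the annotated gene start, the Tlr11 stretch chr14:50357664-50357963 and the Tlr12 stretch chr4:128618570-128618869.
Tlr3 promoter: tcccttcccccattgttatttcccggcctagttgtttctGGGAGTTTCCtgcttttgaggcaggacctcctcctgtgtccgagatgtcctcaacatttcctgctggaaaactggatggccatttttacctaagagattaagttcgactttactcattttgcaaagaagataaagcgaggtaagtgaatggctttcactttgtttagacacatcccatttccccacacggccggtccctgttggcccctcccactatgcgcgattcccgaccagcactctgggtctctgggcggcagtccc
Tlr11 promoter: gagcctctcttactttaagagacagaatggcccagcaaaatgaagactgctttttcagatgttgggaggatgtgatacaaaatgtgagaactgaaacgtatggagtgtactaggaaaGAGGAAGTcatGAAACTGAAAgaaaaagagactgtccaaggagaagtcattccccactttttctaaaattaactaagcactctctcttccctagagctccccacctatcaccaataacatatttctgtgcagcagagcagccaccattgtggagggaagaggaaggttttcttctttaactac
Tlr12 promoter: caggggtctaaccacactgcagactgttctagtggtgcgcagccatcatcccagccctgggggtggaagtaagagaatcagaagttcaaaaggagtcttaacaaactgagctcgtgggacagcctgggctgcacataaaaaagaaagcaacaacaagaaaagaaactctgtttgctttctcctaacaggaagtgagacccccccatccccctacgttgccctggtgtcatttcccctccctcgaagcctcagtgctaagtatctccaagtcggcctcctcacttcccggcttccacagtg
The capitals in Tlr3 mark a match to the NF-kappaB consensus, which occurs in 4.51% of 32851 mouse promoters of this length. Those in Tlr11 mark the PU.1 core GAGGAAGT (3.20% of promoters), whose first base lies at position -133 from the start, and the interferon response element (3.44%) at -122, and the 2 matches do not overlap. Tlr12 held none of these motifs and no AP-1 motif TGANTCA (7.81%), so the 3 promoters had no searched motif in common. Both strands were searched, and a match is a run of letters and says nothing of binding.

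Of the other endosomal receptors, Tlr7 senses single-stranded RNA and had its highest level in pDC-like barcodes. The level was 65.4 control CPM (45.0 to 91.8) and 95.2 IL4 CPM (77.4 to 116), from 33 and 99 UMIs. Macrophage-like barcodes had 31.3 and 38.4 CPM and monocyte-like ones 26.0 and 26.6 CPM, while cDC2-like, cDC1-like and mature DC-like barcodes had between 3.58 and 7.14 CPM. In B cell-like barcodes 10 control UMIs gave 27.5 CPM (13.2 to 50.6), and the IL4 library had 0 UMIs. Tlr8, its neighbour 40.599 kb away on the X chromosome, was highest in macrophage-like barcodes at 18.2 and 21.8 CPM with 12.6 and 13.6 CPM in monocyte-like barcodes and 10 and 7 UMIs in neutrophil-like ones. In pDC-like barcodes 0 and 3 Tlr8 UMIs were counted. Tlr13, a receptor for bacterial ribosomal RNA at chrX:106143204-106160493, had 62.9 CPM (52.2 to 75.2) and 111 CPM (84.3 to 144) in neutrophil-like barcodes, 32.4 and 30.4 CPM in monocyte-like and 23.6 and 28.5 CPM in macrophage-like barcodes. Tlr9, which binds unmethylated CpG DNA, was counted with 28 and 54 UMIs in macrophage-like, 12 and 22 in monocyte-like, 2 and 7 in pDC-like and 0 in B cell-like barcodes of either library, too few to order the types. The gates differ in total UMIs: the pDC-like counts correspond to 3.96 and 6.73 CPM, the macrophage-like ones to 1.57 and 2.35 CPM. Unc93b1, which carries these receptors to endosomes, was present in every type: 505 CPM (445 to 571) and 527 CPM (484 to 573) in pDC-like, 363 and 314 CPM in cDC1-like, 326 and 302 CPM in macrophage-like, and 56.2 and 48.9 CPM in NK-like barcodes.

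**Figure D3:**
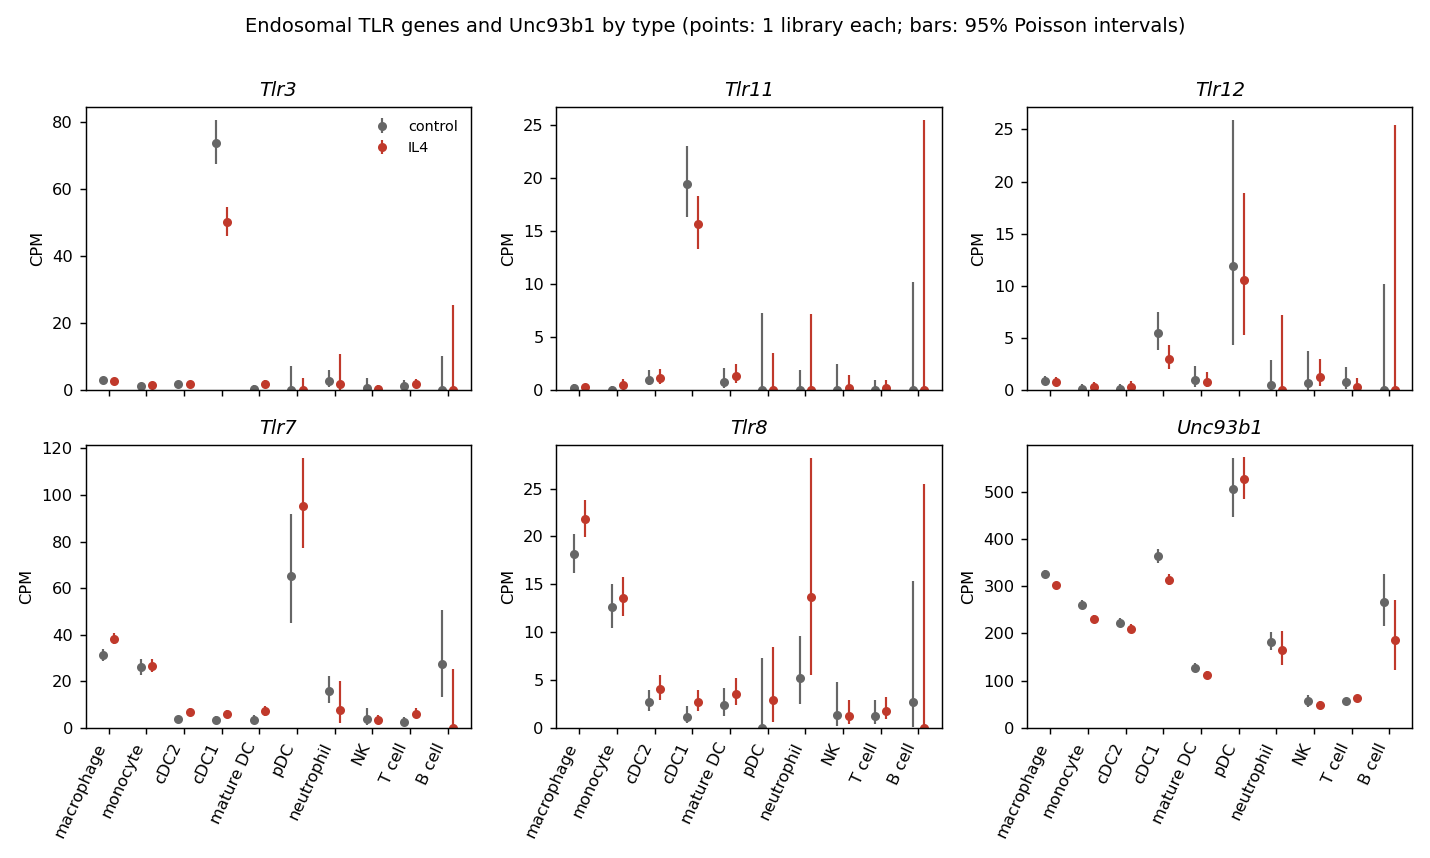
CPM (vertical axis) of Tlr3, Tlr11, Tlr12, Tlr7, Tlr8 and Unc93b1 in 10 marker-gated types, with 1 grey point for the control and 1 red point for the IL4 library and bars for Poisson 95% intervals. Tlr3 and Tlr11 stand high in cDC1-like barcodes alone, Tlr7 is highest in pDC-like barcodes, and the wide bars of B cell-like barcodes come from 58 and 26 barcodes.

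Among the adaptors, Myd88 was present in all types and Ticam2 was uneven. Myd88, the adaptor of all these receptors but Tlr3, had 119 CPM (111 to 128) and 122 CPM (115 to 129) in cDC1-like, 100.2 and 105 CPM in monocyte-like, 99.7 and 95.2 CPM in cDC2-like and 74.5 and 73.8 CPM in macrophage-like barcodes. Its gene overlaps Slc22a14 on the same strand and Acaa1a on the other in the annotation, and Ticam2 overlaps Tmed7 on the same strand, so reads of these pairs may not be separable. Tirap, which bridges Tlr2 and Tlr4 to Myd88, had 22.0 and 17.6 CPM in neutrophil-like barcodes and between 3.47 and 11.3 CPM in the other gates of at least 100 barcodes. Ticam1 (TRIF), the adaptor of Tlr3, had 16.9 to 20.8 CPM in the macrophage-like, monocyte-like, cDC2-like and cDC1-like gates of both libraries, without a type that stood out. Ticam2, which links Tlr4 to Ticam1, had 16.5 and 13.6 CPM in macrophage-like 3.01 and 4.91 CPM in cDC1-like and 4.01 and 0.760 CPM in NK-like barcodes.

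Of the IRAK kinases, Irak4 and Irak1 were evenly spread and Irak2 and Irak3 were not. Irak4, which starts signalling from Myd88, ranged from 26.1 to 56.7 CPM over the 8 types with at least 100 barcodes in each library, and Irak1 from 21.5 to 45.4 CPM. Irak2, a kinase that sustains the response, had 762 CPM (723 to 802) and 1215 CPM (1122 to 1315) in neutrophil-like barcodes. It had 482 and 532 CPM in monocyte-like, 376 and 457 CPM in macrophage-like, 302 CPM in cDC2-like barcodes of both libraries, and 127 and 149 CPM in mature DC-like barcodes. Irak3 (IRAK-M), an inhibitor of TLR signalling, had 92.3 CPM (79.1 to 107) and 201 CPM (164 to 244) in neutrophil-like, 82.9 and 91.8 CPM in monocyte-like and 58.7 and 72.1 CPM in macrophage-like barcodes. In cDC2-like, cDC1-like and mature DC-like barcodes Irak3 lay between 11.9 and 21.7 CPM. B cell-like barcodes had 32 and 25 Irak3 UMIs, 88.1 CPM (60.3 to 124) and 172 CPM (112 to 254). Irak2, Irak3, Irak4, Aim2, Tirap and Tlr3 each overlap a gene of the opposite strand that the files also list, and the sources used here do not say whether strand was used in counting.

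Nod2 was highest in monocyte-like barcodes, at 65.9 CPM (60.9 to 71.3) and 81.0 CPM (76.3 to 86.0), against 47.2 and 64.2 CPM in cDC2-like, 45.1 and 68.4 CPM in neutrophil-like and 32.1 and 43.4 CPM in macrophage-like barcodes. Nod1 had 30.004 and 34.7 CPM in monocyte-like, 29.9 and 72.3 CPM in neutrophil-like, 24.7 and 29.6 CPM in NK-like and 18.6 and 24.7 CPM in macrophage-like barcodes. Among the gates of at least 100 barcodes their kinase Ripk2 was highest in mature DC-like barcodes, at 129 CPM in both libraries (119 to 139 and 121 to 138), and next in monocyte-like barcodes at 88.03 and 108 CPM. The 58 control B cell-like barcodes had 135 CPM (99.8 to 178).

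Nlrp3, the inflammasome sensor of membrane damage and ion flux, had by far its highest level in neutrophil-like barcodes, 943 control CPM (899 to 987) and 1336 IL4 CPM (1238 to 1440.3). Monocyte-like barcodes had 323 and 439 CPM, macrophage-like 291 and 512 CPM, cDC2-like 146 and 236 CPM, cDC1-like 80.7 and 138 CPM, and mature DC-like 77.7 and 124 CPM. After thinning to 1000 UMIs, 57.3% (51.6 to 62.9, Clopper-Pearson) of control and 73.4% (64.9 to 80.9) of IL4 neutrophil-like barcodes had an Nlrp3 UMI, against 25.9% (23.9 to 28.0) and 38.0% (36.2 to 39.8) of macrophage-like and 2.26% and 4.15% of NK-like barcodes. Without thinning these shares were 85.4% and 90.3%, 69.3% and 81.7%, and 14.7% and 19.4%, and 12 control and 6 IL4 neutrophil-like and 35 and 44 macrophage-like barcodes were too shallow to be thinned. The median depth of neutrophil-like barcodes was the lowest of all gates, 3139 and 2495 UMIs, against 8352 and 7168 in macrophage-like barcodes. Nlrc4, the sensor of bacterial flagellin and secretion systems, had 28.4 and 29.4 CPM in monocyte-like and 24.7 and 25.1 CPM in macrophage-like barcodes. Aim2, the sensor of cytosolic DNA, showed another distribution: 176 CPM (155 to 199) and 167 CPM (154 to 180) in NK-like, 174 and 142 CPM in cDC2-like, 160 and 133 CPM in cDC1-like, 114 and 109 CPM in monocyte-like, and 99.2 and 92.1 CPM in macrophage-like barcodes. In the control library the NK-like and cDC2-like intervals of Aim2 overlapped.

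The inflammasome adaptor Pycard had 316 and 315 CPM in monocyte-like, 289 and 303 CPM in macrophage-like, 282 and 294 CPM in cDC2-like, and 86.5 and 90.4 CPM in mature DC-like barcodes, the lowest of the 8 types. Casp1, its protease, had 51.8 and 43.7 CPM in monocyte-like and 36.7 and 33.8 CPM in macrophage-like barcodes. Casp4 (also called caspase-11), which senses lipopolysaccharide in the cytosol, had 164 CPM (146 to 183) and 240 CPM (200 to 287) in neutrophil-like, 139 and 132 CPM in monocyte-like and 132 and 147 CPM in macrophage-like barcodes. Casp1 and Casp4 are neighbouring paralogs 1.562 kb apart on chromosome 9, so shared reads make both uncertain. Gsdmd, the pore-forming substrate, had 56.3 and 50.7 CPM in monocyte-like and 54.2 and 48.4 CPM in mature DC-like barcodes, with overlapping intervals. Mature DC-like barcodes thus combined a low Pycard level with a Gsdmd level near the highest. Mavs, the adaptor of the cytosolic RNA helicases, stayed at or under 13.9 CPM in every gate, and Tbk1, the kinase that activates interferon regulatory factors, had 133 and 178 CPM in neutrophil-like, 120 and 129 CPM in monocyte-like and 114 and 127 CPM in macrophage-like barcodes.

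Between the libraries, most of the 35 genes differed little in the large myeloid gates. A gene was counted as higher or lower when log2 of the ratio of IL4 to control CPM, each plus 1, passed 1.5-fold, among genes with at least 20 UMIs over both libraries. In macrophage-like barcodes 2 of 34 counted genes passed it, against 6.28% of all 13382 genes: Nlrp3 and Cd14 were higher (3.10% of all genes) and 0 were lower (3.18%). Tlr11 had too few UMIs to be counted. The median log2 ratio of the 34 was 0.08, and that of all genes -0.07. Nlrp3 was 1.76-fold higher (1.70 to 1.82) and Cd14 1.58-fold higher (1.54 to 1.62). Below the limit, Nod2 was 1.35-fold (1.22 to 1.502), Nod1 1.33-fold (1.16 to 1.53) and Tlr2 1.31-fold (1.246 to 1.38) higher in the IL4 library. Among Y-only barcodes these ratios were 1.84-fold (1.38 to 2.46), 1.06-fold (0.708 to 1.57) and 1.29-fold (1.12 to 1.48). Mavs was 1.46-fold (1.204 to 1.78) lower in the IL4 library, except among Y-only barcodes, where its log2 ratio was 0.13. Tlr4 had a log2 ratio of -0.30, Casp1 one of -0.11 and Pycard one of 0.07. Over the whole gate the lipopolysaccharide receptor and its co-receptor Cd14 thus differed in opposite directions, though Tlr4 did not pass 1.5-fold. Among Y-only barcodes Tlr4 was 0.912-fold (0.729 to 1.13), with an interval that included 1.

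**Figure D4:**
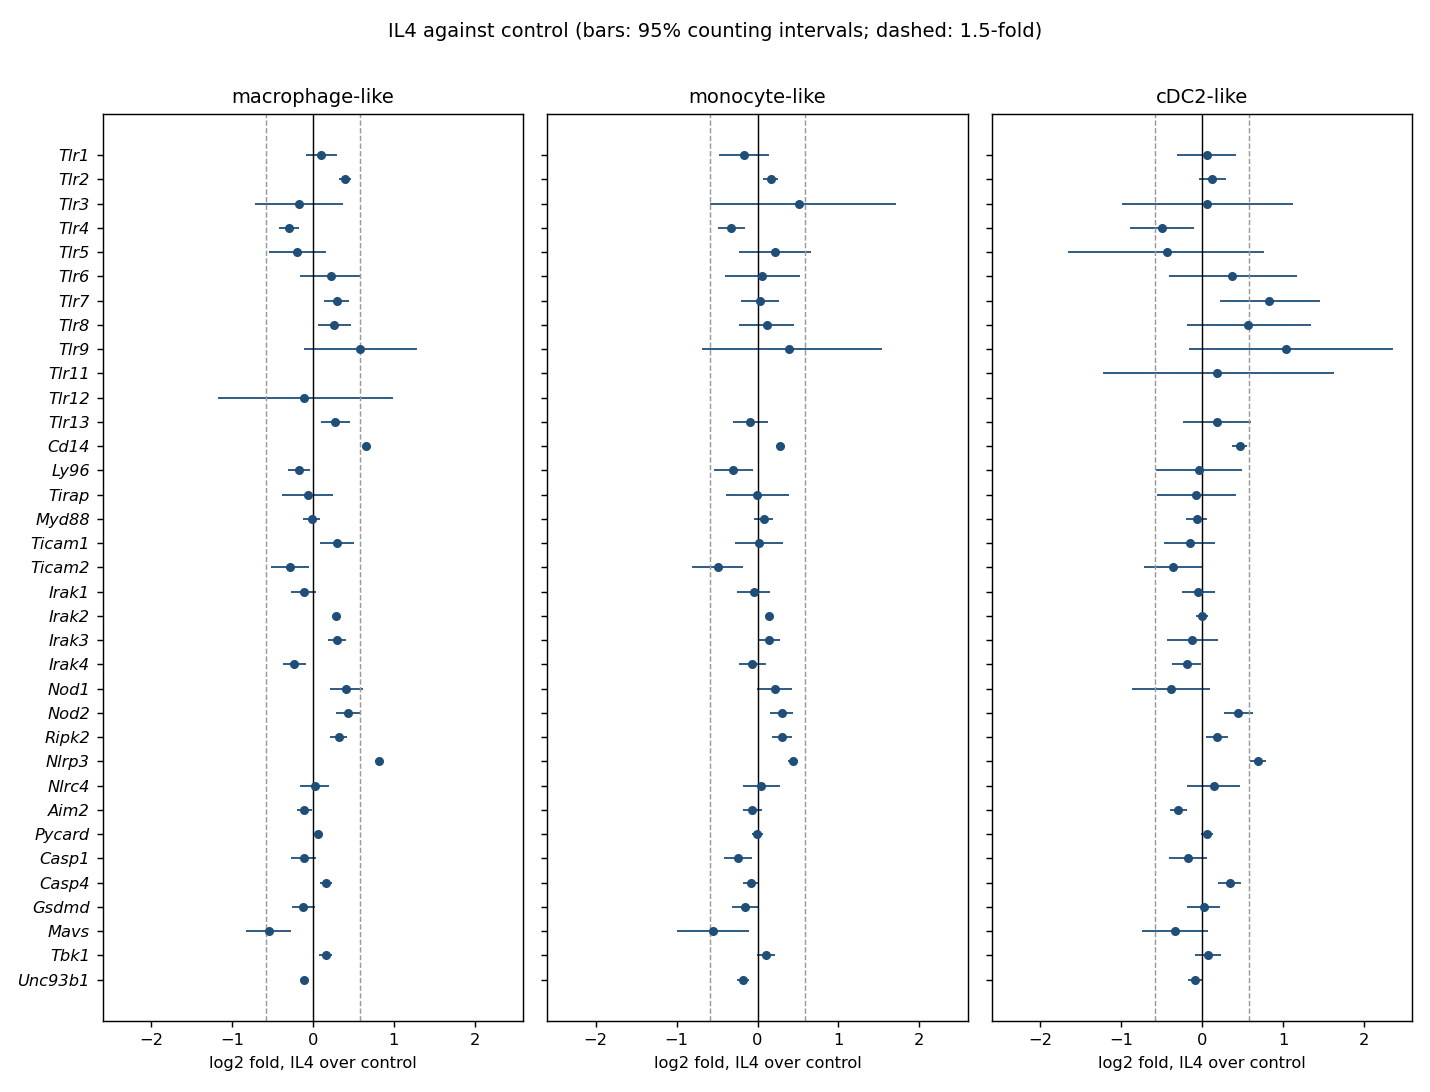
Log2 fold of IL4 over control CPM (horizontal axis) of each of the 35 genes in macrophage-like, monocyte-like and cDC2-like barcodes, with 95% counting intervals and dashed lines at 1.5-fold; genes with under 20 UMIs are left blank. Nlrp3 lies right of the dashed line in macrophage-like and cDC2-like barcodes and between the lines in monocyte-like barcodes.

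In monocyte-like barcodes none of the 33 counted genes passed 1.5-fold in either direction, where 6.63% of all 11890 genes did, 3.59% higher and 3.04% lower. Nlrp3 was 1.36-fold (1.30 to 1.42) and Cd14 1.21-fold (1.17 to 1.253) higher there. Mavs, at 1.47-fold lower (1.08 to 2.003), and Ticam2, with a log2 ratio of -0.46, had the largest differences in the other direction. Among Y-only barcodes the log2 ratio of Ticam2 was 0.068. In cDC2-like barcodes 3 of 34 genes passed (8.19% of all genes), 3 higher (2.61%) and 0 lower (5.59%): Nlrp3 at 1.62-fold (1.51 to 1.73), Tlr7 at 1.77-fold (1.16 to 2.75) from 35 and 67 UMIs, and Tlr9 from 9 and 20 UMIs. In cDC1-like barcodes 5 of 35 passed (9.24% of all genes), 4 higher (3.90%) and 1 lower (5.33%). Cd14 was 1.79-fold (1.64 to 1.95), Nlrp3 1.72-fold (1.55 to 1.89), Tlr7 1.71-fold (1.06 to 2.84) and Tlr8 2.36-fold (1.04 to 6.01) higher, and Tlr12 was 1.81-fold (1.09 to 3.03) lower. The Tlr8 difference rested on 8 and 27 UMIs and turned under the stricter gate (log2 ratio -0.45) and among Y-only barcodes (-1.48). Tlr3, the gene that set this type apart, was 1.47-fold (1.30 to 1.67) lower in the IL4 library, just short of the limit. In this gate the summed level of the 10 macrophage markers was 1008 CPM in the control and 1357 CPM in the IL4 library. That of the 8 classical monocyte markers was 1511 and 1886 CPM, and that of the 9 cDC1 markers 4408 and 3773 CPM. The part of these shifts in the cDC1-like ratios was not tested. In mature DC-like barcodes 4 of 31 passed (8.82% of all genes): Cd14, Nlrp3 and Tlr7 were higher (3.58%), and Tlr5, from 14 and 10 UMIs, was lower (5.25%). In cDC1-like and mature DC-like barcodes the control levels of both Cd14 and Nlrp3 were near those of T cell-like barcodes, 112 and 76.5 CPM. Tlr7 in the conventional and mature dendritic gates was a few CPM, as in control NK-like and T cell-like barcodes (4.01 and 2.73 CPM). How much of these dendritic levels was RNA from other cells was not tested.

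In neutrophil-like barcodes 10 of 28 counted genes passed (26.9% of all 7589 genes), 6 higher (8.22%) and 4 lower (18.7%). Irak3 was 2.18-fold (1.69 to 2.80), Nod1 2.42-fold (1.55 to 3.72), Tlr13 1.77-fold (1.27 to 2.45) and Irak2 1.60-fold (1.45 to 1.75) higher. Irak4 and Nod2 also passed the fold, with intervals that included 1, and so did Gsdmd, Ticam1, Ticam2 and Tlr7 in the other direction. The summed level of the 11 neutrophil markers in this gate was 18751 CPM in the control and 30910 CPM in the IL4 library, that of the 10 macrophage markers 2037 and 1883 CPM, and that of 9 dissociation stress genes 23679 and 19820 CPM, with no marker of the 3 lists at 0. The part of these differences in the results was not tested. Within barcodes that carried Xist but no Y-linked UMIs (65 control and 37 IL4), Irak2 was 1.41-fold higher (1.195 to 1.67), and within Y-only barcodes (96 and 18) 1.46-fold higher (1.17 to 1.81). Tlr13, which is X-linked, was 1.14-fold higher (0.576 to 2.16) among Xist-only barcodes, from 33 and 15 UMIs, and 2.09-fold higher (0.982 to 4.15) among Y-only barcodes, from 33 and 12 UMIs.

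The level of RNA from other cells was read from 6 myeloid genes that no gate used, Lyz2, Csf1r, Cd68, Clec4n, Fcgr1 and Lgmn, as percent of their CPM over the whole library. In T cell-like barcodes 2 of 28 counted genes passed (8.27% of all genes): Tlr7 and Tlr13 were higher (3.45%) and 0 lower (4.82%). Tlr7 lay at 15.02% and 28.0% and Tlr13 at 17.2% and 32.9% of their whole-library CPM, where the 6 myeloid genes spanned 15.5% to 24.0% and 16.8% to 24.5%, so both control levels are read as background. In NK-like barcodes 2 of 24 passed (14.6%), 0 higher (6.02%) and 2 lower (8.60%), Ly96 and Ticam1, both with intervals that included 1. In pDC-like barcodes 6 of 17 passed (24.8%): Cd14, Nlrp3, Nod2 and Casp4 were higher (13.6%), and Ripk2 and Casp1 lower (11.2%). The 6 myeloid genes spanned 9.81% to 61.6% of their whole-library CPM in control and 8.60% to 70.2% in IL4 pDC-like barcodes. Cd68 and Lgmn were the highest in both, while Lyz2, Csf1r, Clec4n and Fcgr1 reached at most 19.3% and 28.4%. Cd14 (11.8% and 18.8%) and Nlrp3 (19.6% and 24.9%) lay near or within the range of these lower genes. Their pDC-like ratios therefore cannot be told apart from background. Nod2 (9.09% and 38.3%) lay under the lower genes in control and above them in IL4. Casp4 (24.9% and 46.6%) lay above them in both libraries. Both stayed under Cd68, so the 6 genes do not decide whether the Nod2 and Casp4 ratios were background. Tlr7 (359% and 436%) and Unc93b1 (202% and 234%) lay above all 6 myeloid genes. In B cell-like barcodes 1 of 12 passed (37.5%), Irak3, which was higher (12.8%), and 0 were lower (24.7%). In the barcodes outside the gates 0 of the 35 genes passed, where 3.88% of all genes did, 2.41% higher and 1.47% lower. Nlrp3 there was 1.44-fold (1.41 to 1.48) and Cd14 1.23-fold (1.21 to 1.252) higher.

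Across the 10 types Nlrp3 had a ratio above 1 in 10, from 1.13-fold in NK-like to 1.80-fold in pDC-like barcodes, and passed 1.5-fold in 5. The NK-like ratio and the pDC-like call rested on levels at or near background. In Y-only barcodes of the cDC1-like and mature DC-like gates the Nlrp3 log2 ratio was -0.017 and -0.075, and after thinning -0.042 in the mature DC-like gate. Cd14 was above 1 in 9 of 10 types, all but NK-like, and Irak2 and Tbk1 were above 1 in 9 of 10. The Cd14 count includes T cell-like, pDC-like and B cell-like barcodes, where Cd14 was at or near the level of RNA from other cells. There it had 24.7% and 22.6%, 11.8% and 18.8%, and 29.7% and 29.8% of its whole-library CPM in control and IL4. In the other direction, Casp1 had a ratio above 1 in 0 of 9 counted types, Irak1 in 1 of 10, Irak4 and Gsdmd each in 1 of 9, and Unc93b1 in 2 of 10. These ratios share the same 2 libraries, so the types are not independent repeats. For these counts across types no share over all genes is given, so they are not read as particular to the listed genes. Tlr7, Tlr8, Tlr13 and Irak1 lie on the X chromosome, and the libraries differed in their shares of male and female cells. In macrophage-like barcodes the Nlrp3 ratio was 1.77-fold (1.70 to 1.85) among Xist-only barcodes (990 and 2141) and 1.76-fold (1.63 to 1.91) among Y-only barcodes (492 and 228), and that of Cd14 was 1.73-fold (1.68 to 1.79) and 1.34-fold (1.26 to 1.42).

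The promoter of Nlrp3 is printed because its ratio is described across the types. The gene spans chr11:59541568-59566956 on the plus strand of GRCm38, and the RefSeq stretch at the annotated gene start is chr11:59541319-59541618, printed as above with the match to the NF-kappaB consensus in capitals, 186 bases before the start. A second RefSeq stretch of Nlrp3, chr11:59542436-59542735, held none of the searched motifs.
Nlrp3 promoter: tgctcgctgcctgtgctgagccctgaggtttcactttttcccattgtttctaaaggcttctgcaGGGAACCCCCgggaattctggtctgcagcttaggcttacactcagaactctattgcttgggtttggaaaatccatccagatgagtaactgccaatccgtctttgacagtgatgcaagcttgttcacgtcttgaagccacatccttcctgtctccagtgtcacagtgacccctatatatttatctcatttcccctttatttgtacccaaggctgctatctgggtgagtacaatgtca
RefSeq promoters were found for 27 of the 35 genes, in 35 stretches, of which 5 held the NF-kappaB consensus (4.51% of all promoters): 2 overlapping stretches of Casp4 and 1 each of Nlrp3, Tlr2 and Tlr3. The PU.1 core was in 5 (3.20%), the interferon response element in 3 (3.44%) and the AP-1 motif in 1 (7.81%). None were found for Tlr7, Ripk2, Gsdmd, Ticam2, Unc93b1, Tlr4, Ly96 and Cd14.

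The macrophage-like gate was not uniform. Unsupervised clustering without the 35 genes placed 283 control and 713 IL4 barcodes of the gate (15.1% and 25.3%) in a cluster led by Flrt2, Cxcl1 and Il1a, and 589 and 868 (31.4% and 30.8%) in one led by Ccl8, Ms4a7 and Folr2. Cd14 had 1269 and 1553 CPM in the first and 342 and 582 CPM in the second, and Nlrp3 had 726 and 956 CPM against 172 and 313 CPM. Of the clusters, 5 held at least 100 barcodes of the gate in each library. Within these 5 the IL4 to control ratio of Nlrp3 ran from 1.32-fold to 2.17-fold and that of Cd14 from 1.22-fold to 1.84-fold, so both were above 1 in each of them. Both highest ratios came from a cluster led by Igha, Igkc and Jchain, with the melanoma genes Pmel, Dct and Mlana also among its leading genes. Its markers gave it no type name, and it held 243 control and 327 IL4 barcodes of the gate. The next highest ratios, 1.82-fold and 1.70-fold, were those of the Ccl8 cluster. Some smaller ratios of the gate turned in single clusters. Nod1 was 0.512-fold (0.271 to 0.953) and Tlr4 1.05-fold in the cluster led by Vcan and Cxcl3. Nod2 was 0.936-fold in the one led by A330040F15Rik and Ifit3, and Tlr2 0.977-fold and Mavs 1.06-fold in the Igha cluster. Among the clusters left out was one led by Arg1, Egln3 and Mmp12, with 841 control and 345 IL4 barcodes inside and outside the gate. An alternative added after the data had been seen used only these 5 clusters, with the control ones weighted by their shares in the IL4 library. The log2 ratio moved from 0.81 to 0.59 for Nlrp3 and from 0.66 to 0.52 for Cd14, which no longer passed 1.5-fold. The summed level of the 9 dissociation stress genes in the macrophage-like gate was 17895 CPM in the control and 19862 CPM in the IL4 library, and in monocyte-like barcodes, where Nlrp3 was also higher, it was 19084 and 15977 CPM. The part of these differences in the Nlrp3 and Cd14 ratios was not tested.

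In NK-like and T cell-like barcodes part of the list was at the level of RNA from other cells. The 6 myeloid genes had 12.4% to 21.9% of their whole-library CPM in control and 11.01% to 16.2% in IL4 NK-like barcodes, and 15.5% to 24.0% and 16.8% to 24.5% in T cell-like barcodes. Cd14 lay at 24.0% and 15.6% in NK-like and 24.7% and 22.6% in T cell-like barcodes, and Nlrp3 at 18.0% and 14.3% in NK-like barcodes. Its level there is therefore read as background. Aim2 lay at 148% and 150% in NK-like and at 95.04% and 114% in T cell-like barcodes, Nod1 at 137% and 133% in NK-like, and Irak1 at 119% and 114% in NK-like and 97.4% and 106% in T cell-like barcodes. Irak2 (91.0% and 87.8%), Ripk2 (93.5% and 93.6%), Casp4 (94.4% and 89.8%) and Pycard (76.6% and 90.5%) in NK-like barcodes also stood several-fold above the 6 myeloid genes. In NK-like barcodes Tlr8 (13.5% and 11.4%), Tlr13 (16.5% and 12.3%) and Irak3 (11.6% and 12.1%) lay within or under the span of the 6 myeloid genes, and Unc93b1 (22.5% and 21.7%) just above it. In T cell-like barcodes Nlrp3, at 30.2% and 30.5%, lay above the span of the 6 genes in both libraries.

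**Figure D5:**
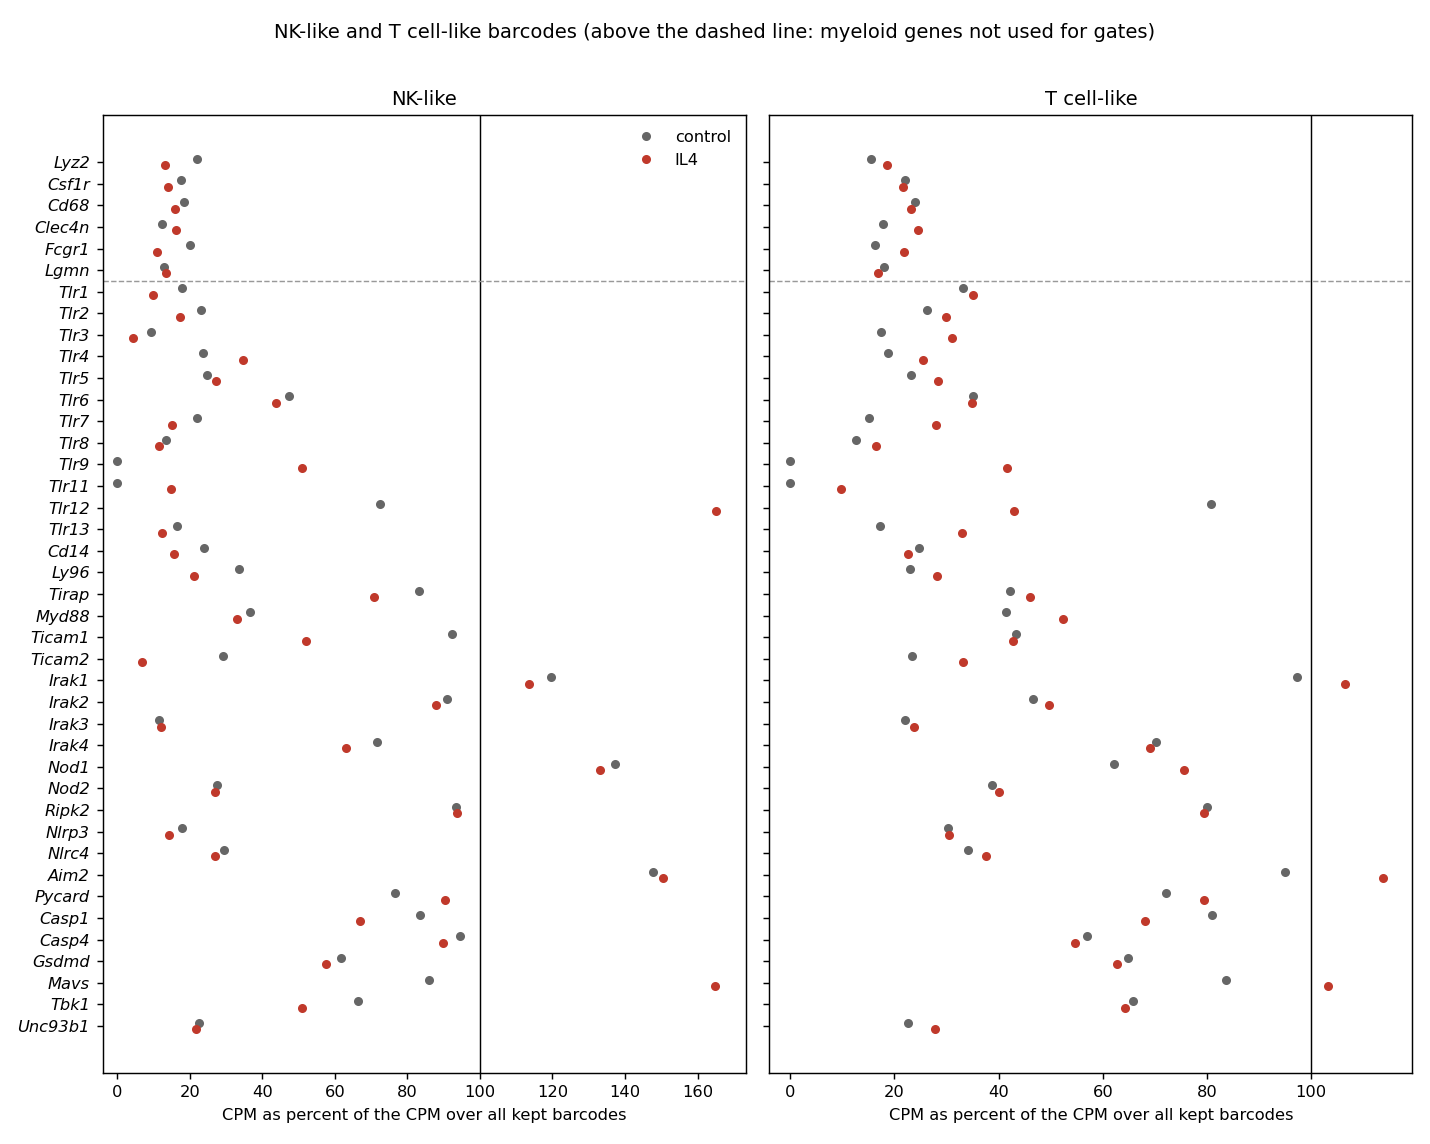
CPM in NK-like (left) and T cell-like (right) barcodes as percent of the CPM over all kept barcodes of the library (horizontal axis), for 6 myeloid genes above the dashed line and the 35 genes below it, in grey for control and red for IL4. Cd14, Nlrp3 and Irak3 sit beside the 6 myeloid genes in the NK-like panel, where Aim2, Nod1 and Irak1 lie right of 100%.

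The wider pathway was read from 64 other listed genes. In macrophage-like barcodes 11 of the 61 with enough UMIs were higher in the IL4 library and 1 lower, where 3.10% of all genes were higher and 3.18% lower. In monocyte-like barcodes 7 of 61 were higher and 0 lower (3.59% and 3.04% of all genes), and in cDC2-like barcodes 8 of 59 and 1 (2.61% and 5.59%). Their median log2 ratios were 0.11, 0.09 and 0.14. The products of the pathway gave the most: 6 of 9 were higher in macrophage-like, 4 of 9 in monocyte-like and 5 of 9 in cDC2-like barcodes. Il1a, which is among these products, also led the cluster that held 15.1% of control and 25.3% of IL4 macrophage-like barcodes. The part of this shift in the macrophage-like ratios of the 64 genes was not tested. Il12b, which encodes a subunit of interleukin-12, had 2.02 control and 10.9 IL4 CPM in macrophage-like barcodes. Of 5 transcription factors 2 were higher there, Irf7 at 1.90-fold (1.80 to 2.002) and Nfkb1 at 1.62-fold (1.58 to 1.66), and of 7 inhibitors 2, Nfkbia at 1.59-fold (1.57 to 1.61) and Tnfaip3 at 1.58-fold (1.54 to 1.62). Among 13 downstream kinases and ligases 0 passed the fold, and Peli1 came nearest with 1.495-fold (1.46 to 1.53). Among the 12 of 14 other inflammasome genes with enough UMIs Mefv was higher at 1.55-fold (1.42 to 1.69), while Nlrp1b, at 51.7 and 34.8 CPM, had a log2 ratio of -0.56. Of 7 other nucleic acid sensors 0 passed in macrophage-like barcodes, with Ifih1 at 283 and 390 CPM, and 1 of 7, Ifih1, passed in monocyte-like barcodes at 1.57-fold (1.47 to 1.67). Of the 8 TLR partners and trafficking genes only Lbp, under 1 CPM in both libraries, passed, being lower.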

How the data were processed

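Per the submitters' processing notes, the authors used Cell Ranger 7.2.0 and the mm10 build. The values the authors deposited for the 2 libraries are raw UMI counts, 1 per gene and barcode. The annotation release, the use of strand and any doublet removal are not given in the sources used here. Barcodes were kept from 500 UMIs and 250 genes upward, up to a mitochondrial share of 10%. Gates needed at least 4 markers of a list with a UMI and a minimum of marker UMIs per 10000: 40 for macrophage, 30 for classical monocyte and neutrophil, 20 for mature DC, 15 for cDC1 and pDC, 10 for B, T and NK cells, and 8 for cDC2. Lymphocyte and pDC gates allowed a macrophage score of at most 10, monocyte and cDC2 gates one of at most 20. The minimums were set after the scores had been seen. No doublet caller was run; barcodes that met several gates (67 control and 141 IL4) were left out. The genes, marker lists and pathway lists were chosen with earlier results of these data known. All 35 genes were accounted for; a gene under 5 CPM in every type of at least 100 barcodes was given by its UMIs, and up to 3 other pathway genes per group were named by their log2 ratio in macrophage-like barcodes. Levels carry exact Poisson intervals, ratios exact conditional binomial intervals and shares exact Clopper-Pearson intervals, all at 95%. Leiden clusters (2000 variable genes without the 35, 30 components, 15 neighbours, resolution 1) served as an alternative to the gates. Other alternatives were stricter gates, other pseudocounts, UMI minimums and scalings, equal weight per barcode, thinning to 1000 UMIs, leaving out the 5% of barcodes with the most UMIs, and Xist-only or Y-only barcodes. Sums and intervals were tested on simulated data. Python 3.11.15, scipy 1.17.1, scikit-learn 1.9.0 and leidenalg 0.10.2 were used. Gene positions came from GENCODE on GRCm38.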

Additional observations from a re-analysis of the deposited data

How the results depend on the processing

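No paired analysis was possible because each group had 1 library and the labels carry no replicate number. The count of genes past 1.5-fold in macrophage-like barcodes was 2 and stayed within 1.5 times of it in 13 of 15 alternatives; it was 5 with each barcode thinned to 1000 UMIs and 1 with clusters weighted as in the IL4 library, which was chosen after seeing the data. Nlrp3 passed the fold in 15 of 15 (log2 ratio 0.59 to 0.93) and Cd14 in 13 of 15 (0.42 to 0.94). In monocyte-like barcodes the count of 0 became 2 with Leiden clusters, 1 with no UMI minimum, 2 among Xist-only (both lower) and 2 among Y-only barcodes (both higher). In cDC2-like barcodes the count of 3 became 1 with Leiden clusters, with a pseudocount of 5 and with every barcode weighted the same, and 6 among Y-only barcodes. The number of genes with 1 highest type in both libraries was 26 to 29 over 4 alternatives. Among the genes past the fold in macrophage-like, cDC2-like, cDC1-like, mature DC-like and neutrophil-like barcodes, these turned sign. With thinning, the log2 ratio was -0.043 for Tlr7 and -0.22 for Tlr9 in cDC2-like, -0.049 for Irak4 and 0.10 for Gsdmd in neutrophil-like, and -0.042 for Nlrp3 in mature DC-like barcodes. Among Y-only barcodes it was -1.09 for Tlr9 in cDC2-like, 0.18 for Tlr7 and 0.18 for Ticam1 and -0.062 for Nod2 in neutrophil-like, -1.48 for Tlr8 and -0.017 for Nlrp3 in cDC1-like, and -0.075 for Nlrp3 in mature DC-like barcodes. With the stricter gate it was -0.45 for Tlr8 in cDC1-like barcodes. The cause was not tested. Depth limits the pDC-like, B cell-like and neutrophil-like gates most, and no scaling moved the median of all genes by over 0.1.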
